A study of Mus musculus with 12 samples.

Results

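The transcripts of 10 immediate early genes, Fos, Fosb, Jun, Junb, Egr1, Egr2, Atf3, Ier2, Dusp1 and Zfp36, were followed through 12 mouse liver libraries. The genes were chosen by name, as rows with these symbols in all 12 count tables, and they are 10 of the 23420 genes counted. Total RNA of whole liver from C57BL/6 mice had been sequenced to ask what loss of Gdown1, an RNA polymerase II-binding protein encoded by Polr2m, changes in liver with and without p53. Each of 6 groups holds 2 libraries. FF livers carried floxed Gdown1 alleles and KO livers the same alleles with Alb-Cre, both at 7 weeks. The p53KO livers were Gdown1 flox/flox and p53-/-, and the DKO livers carried Alb-Cre in addition, both at 8 weeks. The p53KO TAM and DKO TAM livers were also Gdown1 flox/flox and p53-/- and were taken 24 hours after tamoxifen, and those of the DKO TAM group carried the inducible recombinase Alb-CreERT2. The age of the tamoxifen-treated mice is not given, and the genotype of the p53KO TAM livers names no Cre.

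All 6 groups thus share the floxed alleles, and Cre is present wherever Gdown1 is deleted, so an effect of Cre cannot be told apart from that of the deletion. The albumin promoter drives Cre in hepatocytes, and which other liver cells keep Gdown1 was not measured. In whole liver, fewer cells of a type and less RNA per cell cannot be told apart. No label says that the 2 libraries of a group are separate animals, and the p-values measure only the spread between these libraries. Values below are CPM, counts brought to a common library total and scaled by TMM, which takes most genes as unchanged between libraries. They are given for libraries 1 and 2 in that order, and for libraries 2 and 3 of DKO, whose titles carry those numbers. Fold changes are log2 values with their standard error (SE), adjusted p-values come from the edgeR quasi-likelihood test over all 13693 genes tested, and a gene with an adjusted p under 0.05 is called.

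Immediate early genes are transcribed within minutes of a stimulus from transcription factors already present in the cell, and their mRNAs decay quickly. Growth factor and stress signals reach them through MAP kinases, which act on the serum response factor SRF and its ternary complex partners at CArG boxes and on CREB and ATF factors at cyclic AMP response elements. In liver they are known for a rapid rise after partial hepatectomy and injury. Fos, Fosb, Jun, Junb and Atf3 encode basic leucine zipper proteins of the AP-1 group, Egr1 and Egr2 encode zinc finger transcription factors, and Ier2 encodes a small nuclear protein. Dusp1 and Zfp36 encode feedback inhibitors, a phosphatase that inactivates MAP kinases and a protein that binds AU-rich elements and speeds the decay of mRNAs.

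Because these genes share such elements, their promoters were searched. RefSeq promoters of build GRCm38.p6 were found for 8 of the 10 genes, and Ier2 and Egr1 are named only. In the 250 bases before the start, TGACG, the core of the cyclic AMP response element, was present on either strand in 6 of 8, against 17.8% of 32851 promoters. The CArG box was present in 2 of 8, Egr2 and Zfp36, against 1.47% of promoters. Other motifs were GCGNGGGCG, bound by EGR proteins (2 of 8, Fosb and Zfp36, against 4.70%), and TGATGNAA, bound by heterodimers of ATF4 and C/EBP proteins (1 of 8, Atf3, against 3.45%). The AP-1 site TGANTCA was in none of 8, against 6.75%, TATAAA in Fos only (12.4%), CCAAT in 3 of 8 (33.8%) and GGGCGG in 6 of 8 (32.7%). The motif TGACG also lies within TGACGTCA, which matches it on both strands; the match in Atf3 lies in the 7 bases nearest the start, which are left out of the sequence printed. A match describes the letters of this window and is no measurement of binding. Bases outside the window were not searched, so a gene without a match here may hold one elsewhere.

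The sequences shown are those of genes whose transcripts moved in different ways below, Fos, Atf3, Dusp1 and Zfp36. They come from chr12:85473640-85473889 (plus strand) for Fos, chr1:191183341-191183583 (minus strand) for Atf3, chr17:26508520-26508722 (minus strand) for Dusp1 and chr7:28379267-28379296 (minus strand) for Zfp36. All lie before the start that RefSeq gives. For Zfp36 the GENCODE annotation of the same build places exons, taken over all genes and both strands, across the whole window of 250 bases, so the stretch printed is exonic there. For Atf3 and Dusp1 the 7 and 47 bases that an annotated exon covers are left out, and for Zfp36 only the CArG box with 10 bases on each side is given. Capitals mark TGACG or its fuller form in Fos and Dusp1, the TGATGNAA match, here on the opposite strand, in Atf3, and the CArG box in Zfp36.
Fos: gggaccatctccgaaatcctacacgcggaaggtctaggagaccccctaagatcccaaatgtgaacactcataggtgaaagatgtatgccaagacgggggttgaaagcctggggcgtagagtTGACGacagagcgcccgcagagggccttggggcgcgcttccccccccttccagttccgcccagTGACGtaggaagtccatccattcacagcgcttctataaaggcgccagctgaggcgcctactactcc
Atf3: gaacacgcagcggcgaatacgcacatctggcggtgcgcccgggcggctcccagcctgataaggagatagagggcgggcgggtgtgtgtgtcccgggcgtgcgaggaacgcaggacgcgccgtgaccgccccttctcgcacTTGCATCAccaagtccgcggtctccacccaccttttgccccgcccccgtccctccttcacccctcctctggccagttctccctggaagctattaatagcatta
Dusp1: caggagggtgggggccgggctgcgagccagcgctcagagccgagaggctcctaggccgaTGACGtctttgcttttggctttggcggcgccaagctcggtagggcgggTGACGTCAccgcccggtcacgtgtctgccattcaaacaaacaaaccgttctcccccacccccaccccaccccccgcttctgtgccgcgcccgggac
Zfp36: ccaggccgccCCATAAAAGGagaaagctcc
In Fos the capitals stand 129 to 125 and 66 to 62 bases before the start, followed by TATAAA at 33 to 28. In Atf3 the match stands at 110 to 103, and in Zfp36 the CArG box stands at 58 to 49.

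The genes are also short. Their median number of exons was 2, against 6 over all 23420 genes, and their median span was 3279 bases, against 15194. Jun, Junb and Ier2 have a single exon, which is 30.0% of the 10 genes and 12.9% of all genes. No other counted gene shares exon bases with any of the 10, so that reads counted without regard to strand are not divided with an overlapping annotated gene.

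Library totals ranged from 4939408 to 8776369 counts. Polr2m, which checks the labels, stood at 100.2 and 96.7 CPM in FF and 64.6 and 59.3 CPM in KO, at 89.0 and 103 CPM in p53KO and 58.0 and 59.9 CPM in DKO, and at 75.8 and 78.6 CPM in p53KO TAM and 65.9 and 54.5 CPM in DKO TAM. It was lower in every deleted library than in its controls, with an adjusted p of 0.0024, 0.00024 and 0.063 in the 3 comparisons. Trp53 stood at 13.1 and 7.94 CPM in FF, 17.1 and 22.5 CPM in KO, 3.07 and 2.79 CPM in p53KO and 3.78 and 3.96 CPM in p53KO TAM. In the libraries labelled DKO it stood at 8.39 and 8.12 CPM and in those labelled DKO TAM at 8.95 and 10.01 CPM, within the range of FF and above their p53-/- controls (1.48 ± 0.29, adjusted p = 0.00050, and 1.29 ± 0.28, adjusted p = 0.0039). Trp53 was also higher in KO than in FF (0.93 ± 0.24, adjusted p = 0.013). The DKO and DKO TAM libraries lay below both KO libraries. These levels alone therefore do not settle the p53-/- label of both groups. The counts cover the whole gene, the part that the null allele lacks is not given in the labels, and the cause was not tested. DKO and DKO TAM therefore stand below for the libraries so labelled, and no comparison with them is read as one of p53 states. Hepatocyte markers were present in all libraries: 10 of them summed to at least 133973 CPM in each control library, 75664 to 86015 CPM in KO, 42167 to 44588 CPM in DKO and 66446 to 69117 CPM in DKO TAM. On library totals without TMM, the median fold change over all genes shifts on the log2 scale from 0.02 to 0.28 for KO against FF, from 0.01 to 0.77 for DKO against p53KO and from 0.01 to 0.36 for DKO TAM against p53KO TAM.

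Per kilobase of exon and averaged over the 12 libraries, Zfp36 was the most abundant of the 10 transcripts (27.4 CPM per kilobase), followed by Egr1 (26.3), Jun (18.0), Dusp1 (16.3), Junb (12.8), Ier2 (6.93), Fos (4.91) and Atf3 (3.34). Egr2 (0.551) and Fosb (0.271) were rare. This order pools groups that differ: Egr1 led in p53KO (109, against 56.05 for Zfp36) and was at 5.11 to 15.9 elsewhere, and Jun exceeded Zfp36 in KO (20.9 against 19.9) and DKO (28.9 against 23.0). All 10 passed the expression filter. Egr2 reached 10 counts only in both KO and both DKO libraries and 1 DKO TAM library. Fosb reached 10 counts in 4 libraries: KO library 2, p53KO library 1 and both DKO libraries. These 2 genes therefore passed through the groups in which they were high, and counts over all 10 genes below include them.

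The group that stood out was p53KO, the p53-/- control at 8 weeks. Summed over the 10 genes, the level was 898 and 541 CPM in p53KO. It was 173 and 162 CPM in FF, 180 and 203 CPM in KO, 285 and 282 CPM in DKO, 168 and 119 CPM in p53KO TAM and 112 and 140 CPM in DKO TAM. Of the 10 genes, 8 had their highest group mean in p53KO, and the other 2, Egr2 and Atf3, had it in DKO. No gene was highest in FF, KO or either tamoxifen group. The map of all genes and libraries shows the p53KO columns as the warmest for most genes and the DKO columns as the warmest for Egr2 and Atf3.

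**Figure D1:**
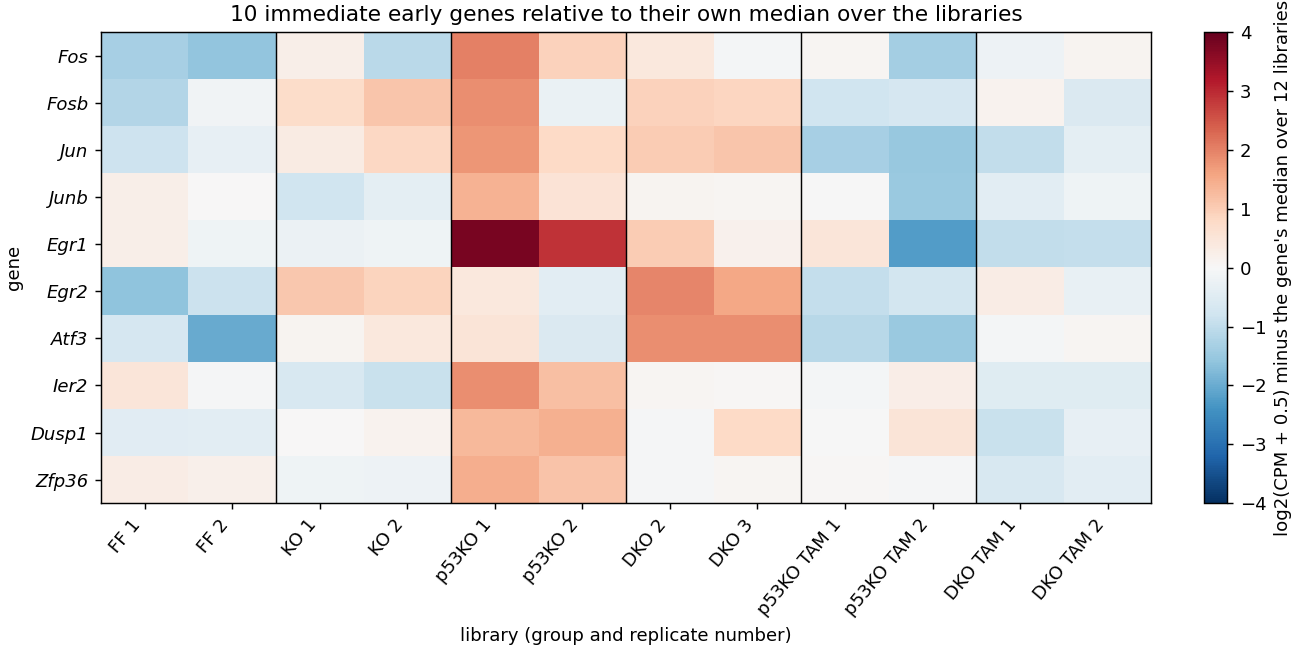
Colour gives log2(CPM + 0.5) of each gene (rows) in each library (columns, by group and replicate number) minus that gene's median over the 12 libraries; red is above the median and blue below it. Egr1 in both p53KO libraries is the darkest red, and Egr2 and Atf3 are reddest in the 2 DKO libraries.

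Across the comparisons of Gdown1-deleted with control livers the 10 genes did not move as a block. For KO against FF, Egr2 and Atf3 were called higher (6.92% of all genes tested were called higher) and Ier2 was called lower (7.88% of all genes). In DKO against p53KO, Egr2 and Atf3 were again called higher (25.7% of all genes) and 5 genes, Zfp36, Ier2, Dusp1, Egr1 and Fos, were called lower (25.7% of all genes). At 24 hours after tamoxifen, Atf3 was called higher (8.61% of all genes) and Zfp36 lower (10.1%). The median log2 fold change of the 10 genes was 0.84, -0.95 and 0.32 in these comparisons, against 0.02, 0.01 and 0.01 over all genes tested. Libraries did not overlap for 6 higher and 3 lower of the 10 in KO (28.9% and 27.4% of all genes), for 2 higher and 6 lower in DKO (39.7% and 37.3%), and for 4 higher and 3 lower with tamoxifen (30.2% and 29.3%). Fosb, among the last 4, was near its limit of detection, at 0.146 and 0.209 CPM in p53KO TAM and 0.728 and 0.250 CPM in DKO TAM. Counts of 1 or 2 among 10 genes are too few to set apart from such shares, and without Egr2, which passed the filter through the deleted groups, Atf3 was the 1 gene called higher in each comparison. The split of all genes called depends on the scaling. Called higher and lower were 947 and 1079 genes in KO, 3517 and 3525 in DKO and 1179 and 1380 with tamoxifen, but 2741 and 551, 8809 and 960, and 4342 and 586 on library totals alone. Upper quartile scaling gave 4662 and 2435 in DKO. The 5 lower calls in DKO became 3 without p53KO library 1, 2 without DKO library 2 and 3 without DKO library 3.

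Over the 3 comparisons of deleted with control livers, Atf3 was the 1 gene of the 10 called higher each time, as were 1.98% of all genes. The libraries of Atf3 and Egr2 were higher without overlap in all 3, as were 9.43% of all genes. Those of Ier2 and Zfp36 were lower without overlap in all 3, as were 11.7% of all genes, although neither was called lower each time. No gene of the 10 was called lower in all 3, against 3.70% of all genes.

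**Figure D2:**
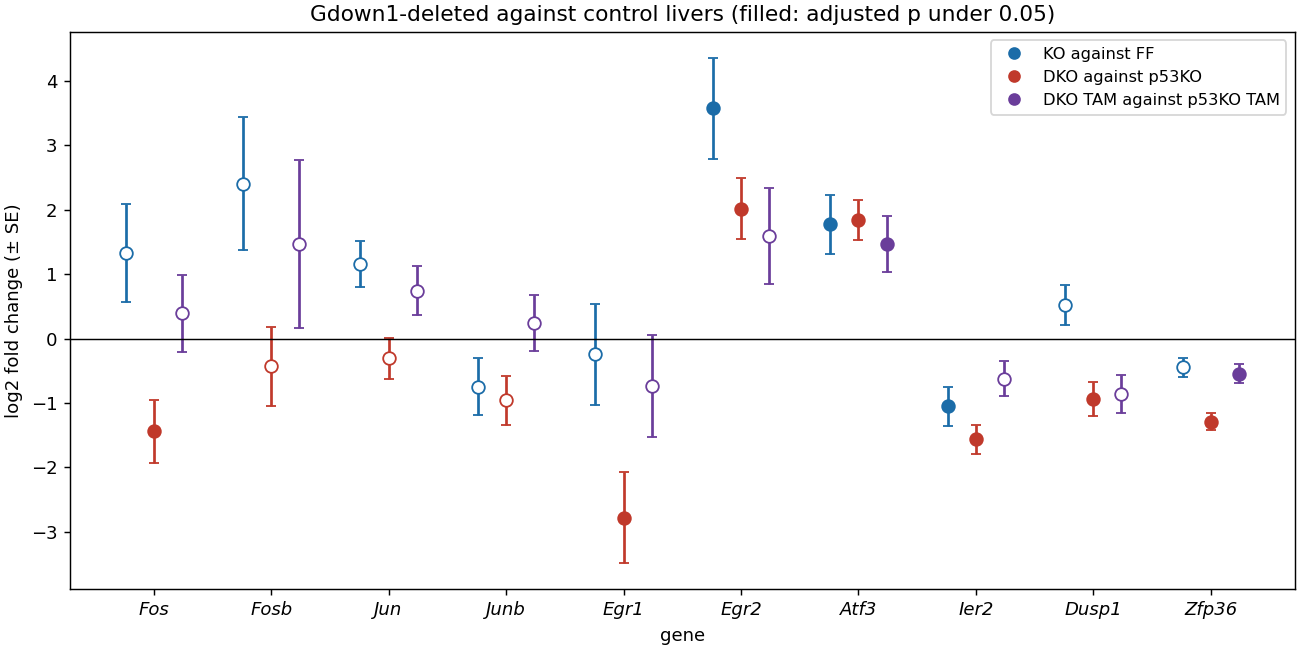
Points are log2 fold changes (vertical axis) with bars of 1 SE for each gene (horizontal axis) in KO against FF (blue), DKO against p53KO (red) and DKO TAM against p53KO TAM (purple); filled points have an adjusted p under 0.05. Egr2 and Atf3 lie above 0 and Ier2 and Zfp36 below 0 in all 3 comparisons.

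Atf3 encodes a stress-induced ATF/CREB protein that pairs with Jun proteins and is a known target of both p53 and ATF4. It stood at 2.93 and 0.863 CPM in FF and at 5.42 and 6.91 CPM in KO. In p53KO it stood at 7.33 and 3.21 CPM and in DKO at 19.4 and 19.7 CPM, the highest values of the series. With tamoxifen it was 2.04 and 1.46 CPM in p53KO TAM and 4.68 and 5.38 CPM in DKO TAM. In each pair of groups both deleted libraries lay above both controls. The log2 fold change was 1.77 ± 0.46 for KO against FF (adjusted p = 0.015), 1.84 ± 0.31 for DKO against p53KO (adjusted p = 0.00013) and 1.48 ± 0.43 with tamoxifen (adjusted p = 0.026). The fold change in KO and that in the libraries labelled DKO differed by 0.07 ± 0.65 on the log2 scale (adjusted p = 0.96), which leaves room for a sizeable difference either way. The KO call was lost without FF library 2 (adjusted p = 0.21) or KO library 2 (0.092), and the tamoxifen call when any 1 of the 4 libraries was left out (0.052 to 0.14) and with limma-voom (0.056).

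Egr2, a zinc finger factor of the EGR family, had 0 and 2 counts in FF and 16 and 12 counts in KO, or 0 and 0.345 CPM against 2.71 and 2.30 CPM. The 0 counts of FF library 1 allow up to 0.677 CPM, 3 counts on the same TMM scale. In p53KO it stood at 1.53 and 0.643 CPM and in DKO at 5.34 and 3.93 CPM. In p53KO TAM it stood at 0.291 and 0.417 CPM (2 counts in each library) and in DKO TAM at 1.35 and 0.750 CPM. The deleted libraries were again higher without overlap each time. KO exceeded FF by a ratio of 12.9, with a 95% exact binomial interval of 3.25 to 112 that covers counting error only (log2 fold change 3.57 ± 0.79, adjusted p = 0.0056). DKO exceeded p53KO by 2.02 ± 0.47 (adjusted p = 0.0018), and the tamoxifen difference of 1.59 ± 0.75 was not called (adjusted p = 0.15). Since Egr2 was tested only because of its levels in the deleted groups, these calls describe it and support nothing further.

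Egr1, which encodes a zinc finger factor induced by SRF and its partners, had the widest range in CPM. It stood at 437 and 235 CPM in p53KO and at 62.9 and 35.1 CPM in DKO. Elsewhere it was 36.8 and 27.4 CPM in FF, 26.4 and 27.5 CPM in KO, 43.7 and 6.26 CPM in p53KO TAM and 15.5 and 15.9 CPM in DKO TAM. Both p53KO libraries thus lay above all others, and from DKO downwards each group's libraries overlapped those of the next group in order of the means. The fall from p53KO to DKO was called (log2 fold change -2.78 ± 0.71, adjusted p = 0.017). KO and FF overlapped (-0.25 ± 0.79, adjusted p = 0.88), as did the tamoxifen groups (-0.73 ± 0.79, adjusted p = 0.59). The DKO call was lost without p53KO library 1 (adjusted p = 0.073), DKO library 2 (0.052) or DKO library 3 (0.10).

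Fos encodes the partner of Jun proteins in AP-1. It stood at 3.16 and 2.59 CPM in FF, at 10.3 and 3.84 CPM in KO, at 36.8 and 17.1 CPM in p53KO and at 11.9 and 8.29 CPM in DKO. In p53KO TAM it was 9.17 and 3.13 CPM and in DKO TAM 7.60 and 9.504 CPM. The libraries of p53KO lay above the rest, and those of all later neighbours in the order of means overlapped. Fos was called lower in DKO than in p53KO (-1.44 ± 0.49, adjusted p = 0.038), a call lost without p53KO library 1 (adjusted p = 0.29), without either DKO library, without the expression filter and with upper quartile or library total scaling. The differences of 1.34 ± 0.76 for KO against FF (adjusted p = 0.30) and of 0.39 ± 0.59 with tamoxifen (adjusted p = 0.70) were not called. Fosb, a close relative, had 3 counts in FF and 18 in KO, a ratio of 5.52 with a counting interval of 1.61 to 29.2 (adjusted p = 0.14), and stood at 0 and 0.518 CPM in FF and 1.35 and 1.92 CPM in KO. Its p53KO libraries, at 3.58 and 0.429 CPM, lay on either side of DKO, at 1.61 and 1.54 CPM (-0.43 ± 0.62, adjusted p = 0.58), a sign that turned without p53KO library 1, with library totals alone and with limma-voom. With tamoxifen it was near its limit of detection, at 0.146 and 0.209 CPM (1 count in each library) in p53KO TAM and 0.728 and 0.250 CPM in DKO TAM.

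Jun, the defining subunit of AP-1, stood at 24.6 and 34.3 CPM in FF and 55.3 and 78.0 CPM in KO. Its p53KO libraries, at 150 and 76.5 CPM, enclosed those of DKO, at 88.5 and 95.4 CPM. In p53KO TAM it was 17.2 and 15.0 CPM and in DKO TAM 21.7 and 32.9 CPM. Jun was thus higher without overlap in KO than in FF and in DKO TAM than in p53KO TAM, but not called (1.16 ± 0.36, adjusted p = 0.065, and 0.75 ± 0.38, adjusted p = 0.22). The KO difference was called with DESeq2 (adjusted p = 0.00090), limma-voom (0.026), only the libraries compared (0.0065) and library totals alone (0.016), and the tamoxifen difference with the last 2 (0.030 and 0.042). DKO did not separate from p53KO (-0.30 ± 0.32, adjusted p = 0.46), and without p53KO library 1 or with library totals alone that sign turned, while without p53KO library 2 Jun was called lower (-0.71, adjusted p = 0.032). Junb, an AP-1 subunit that competes with Jun, stood at 26.4 and 22.6 CPM in FF, 12.5 and 16.7 CPM in KO, 58.5 and 32.6 CPM in p53KO, 23.9 and 23.3 CPM in DKO, 21.7 and 7.51 CPM in p53KO TAM and 16.2 and 19.8 CPM in DKO TAM. Its differences of -0.75 ± 0.45 for KO (adjusted p = 0.32) and -0.96 ± 0.38 for DKO (adjusted p = 0.067) lay on the other side of 0 from those of Atf3, and neither was called. With tamoxifen the Junb libraries overlapped, and the difference of 0.24 ± 0.43 (adjusted p = 0.75) lay on the same side as that of Atf3. The DKO difference was called with DESeq2 (adjusted p = 0.014), limma-voom (0.017), only the libraries compared (0.012) and without p53KO library 2 (0.026), and the KO difference with only the libraries compared (0.026).

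Ier2 stood at 11.7 and 7.94 CPM in FF and 5.08 and 4.22 CPM in KO. It stood at 31.2 and 19.7 CPM in p53KO and 8.72 and 8.64 CPM in DKO, and at 7.86 and 10.01 CPM in p53KO TAM and 5.72 and 5.75 CPM in DKO TAM. The deleted libraries were lower without overlap each time. The log2 fold change was -1.05 ± 0.30 for KO (adjusted p = 0.027), -1.56 ± 0.23 for DKO (adjusted p = 2.9e-05) and -0.62 ± 0.27 with tamoxifen (adjusted p = 0.13). The DKO call held under every alternative run, with adjusted p up to 0.0061. The KO call was lost with library totals alone (adjusted p = 0.071), with limma-voom (0.074) and without FF library 1 (0.21), KO library 1 (0.072) or KO library 2 (0.14).

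Zfp36, which encodes the mRNA-decay protein tristetraprolin, had the smallest estimated spread of the 10 between libraries of a group. It stood at 48.8 and 46.6 CPM in FF and 35.7 and 34.4 CPM in KO, at 110 and 87.9 CPM in p53KO and 38.7 and 42.4 CPM in DKO, and at 41.0 and 39.0 CPM in p53KO TAM and 25.6 and 29.5 CPM in DKO TAM. The deleted livers were lower without overlap in all 3 pairs. The log2 fold change was -0.44 ± 0.15 for KO (adjusted p = 0.050, not called, but called with RLE at 0.049), -1.29 ± 0.14 for DKO (adjusted p = 8.2e-07) and -0.54 ± 0.14 with tamoxifen (adjusted p = 0.015). Without p53KO TAM library 1 or DKO TAM library 1 the last call was lost (adjusted p = 0.10 and 0.11), as it was with library totals alone (-0.19, adjusted p = 0.32).

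Dusp1, the MAP kinase phosphatase, stood at 18.3 and 18.5 CPM in FF and 25.2 and 27.7 CPM in KO. It stood at 61.9 and 67.9 CPM in p53KO and 24.1 and 43.5 CPM in DKO, and at 24.7 and 35.9 CPM in p53KO TAM and 13.2 and 20.01 CPM in DKO TAM. KO libraries were above FF, and the other deleted libraries were below their controls, each without overlap. Only the fall in DKO was called (-0.94 ± 0.26, adjusted p = 0.011), and it was lost with library totals alone (-0.17, adjusted p = 0.55) and without p53KO library 2 (0.069) or DKO library 2 (0.051). The differences were 0.52 ± 0.31 for KO (adjusted p = 0.30) and -0.86 ± 0.29 with tamoxifen (adjusted p = 0.064), the latter called with only the libraries compared (0.034), DESeq2 (0.019) and the replicate block (0.029).

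**Figure D3:**
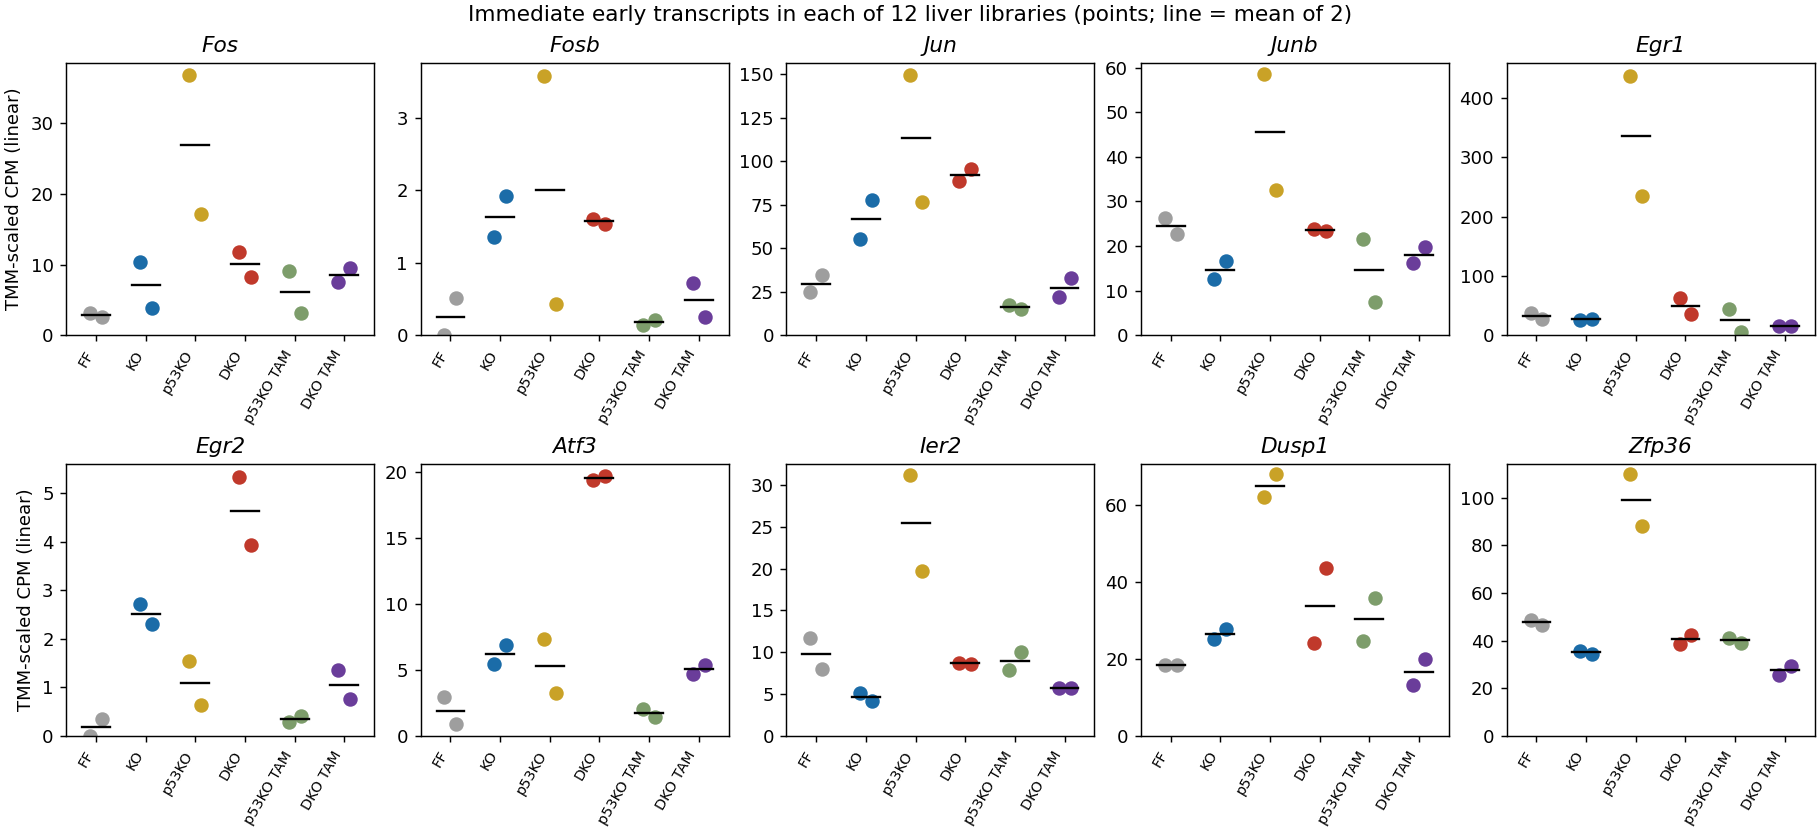
Each panel shows 1 gene, with TMM-scaled CPM on a linear vertical axis that starts at 0, the 6 groups along the horizontal axis, a point per library and a line at the mean of the 2 libraries. The p53KO libraries are highest for Egr1, Fos, Junb, Ier2, Dusp1 and Zfp36, and the DKO libraries are highest for Egr2 and Atf3.

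The difference between DKO and p53KO was then compared with that between KO and FF. Zfp36 fell further in DKO against p53KO than in KO against FF, by -0.85 ± 0.20 on the log2 scale (adjusted p = 0.0059). Dusp1, at 0.52 in KO and -0.94 in DKO, differed by -1.46 ± 0.40 (adjusted p = 0.024). These were 2 of 10 genes, where 12.9% of all genes were called in that direction, and none of the 10 was called in the other, where 9.76% were. Fos (-2.77 ± 0.90, adjusted p = 0.060) and Jun (-1.47 ± 0.48, adjusted p = 0.061) lay in the same direction and were not called. Limma-voom called both (adjusted p = 0.042 and 0.026), as did DESeq2 (0.00096 and 0.0029), and limma-voom also called Egr1 (-2.55, adjusted p = 0.022). Age, 7 against 8 weeks, goes with the labelled p53 genotype here and cannot be told apart from it. The Trp53 levels of the DKO libraries do not settle that label. Between the chronic and the tamoxifen experiment, Zfp36 alone of the 10 was called, with a difference of -0.75 ± 0.20 (adjusted p = 0.0099), where 14.2% of all genes were called lower and 13.4% higher. Of the genes called, 57.0% were lower in the first of these differences and 51.6% in the second, against 12.3% and 16.6% on library totals alone. Both Zfp36 differences were lost with library totals alone (-0.34, adjusted p = 0.22, and -0.33, adjusted p = 0.24) and with none of the other alternatives run at a threshold of 0.05. That of Dusp1 was lost with library totals (adjusted p = 0.090) and when any 1 library of FF, KO or p53KO was left out (0.058 to 0.096). Without p53KO library 2, 4 of the 10 were called in each of these differences, and without p53KO TAM library 1, 3 were called in the second.

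The control livers themselves differed in these genes. Against FF, all 10 fold changes of p53KO were above 0, with a median of 1.88, while the median over all genes was -0.0029. Libraries were higher without overlap for 9 of the 10, Fosb being the exception, against 19.6% of all genes. For Egr2, 1 of the 9, this is not resolved. Its p53KO library 2 held 3 counts (0.643 CPM), below the 0.677 CPM that the 0 counts of FF library 1 allow. Called higher were Zfp36 (1.06 ± 0.14, adjusted p = 0.0021), Ier2 (1.40 ± 0.25, adjusted p = 0.011) and Dusp1 (1.82 ± 0.29, adjusted p = 0.016), where 0.592% of all genes were called higher (81 genes, and 37 lower; 63 and 46 on library totals alone). Egr1 differed by 3.40 ± 0.76 (adjusted p = 0.15), Fos by 3.26 ± 0.65 (adjusted p = 0.082) and Jun by 1.93 ± 0.35 (adjusted p = 0.056), none of them called. Zfp36 was called without any 1 of the 4 libraries, with adjusted p up to 0.029. Dusp1 was not called when any 1 of them was left out (0.10 to 0.17), nor Ier2 without p53KO library 1 (0.15) or FF library 2 (0.11). DESeq2 and limma-voom each called 6 of the 10, Egr1, Fos and Jun among them. Summed hepatocyte markers were at 133973 to 135132 CPM in FF and 145568 to 147845 CPM in p53KO, and macrophage markers at 631 to 666 and 568 to 647 CPM. Stellate and fibroblast markers summed to 586 to 729 CPM in FF and 423 to 431 CPM in p53KO, with none of 10 called by edgeR but 8 at an unadjusted p under 0.05 (median log2 fold change -0.59). Cholangiocyte markers summed to 92.9 to 162 and 66.6 to 68.9 CPM, with none of 7 called and 2 at an unadjusted p under 0.05 (median -0.95). Their part in the result was not tested. Genotype, age and experiment cannot be told apart in this comparison.

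The tamoxifen-treated controls went the other way. All 10 genes were lower in both p53KO TAM libraries than in both p53KO libraries, as were 27.7% of all genes, and 9 were called lower, where 8.22% of all genes were (1126 genes, and 1034 higher; 775 and 1407 with upper quartile scaling). The exception was Egr2 (-1.67 ± 0.80, adjusted p = 0.18), with 9 and 3 counts in p53KO and 2 in each p53KO TAM library. Fosb, among the 9, had 21 and 2 counts in p53KO and 1 in each p53KO TAM library. For both genes the lack of overlap rests on few counts. Fosb passed the filter partly through p53KO library 1, so its call only describes it. Without that library its log2 fold change was -1.24, against -3.50 with it. Egr1 fell by 3.69 ± 0.76 (adjusted p = 0.023), Jun by 2.81 ± 0.37 (adjusted p = 0.0017), Ier2 by 1.54 ± 0.25 (adjusted p = 0.00047) and Zfp36 by 1.31 ± 0.14 (adjusted p = 1.2e-05). Without p53KO library 1 the count fell to 3, and with only these 4 libraries in the fit it was 5. Jun, Ier2 and Zfp36 were called under every alternative run at the 0.05 threshold. Macrophage markers summed to 568 to 647 CPM in p53KO and 753 to 815 CPM in p53KO TAM, with 5 of 11 called higher and none lower. Stellate and fibroblast markers summed to 423 to 431 and 574 to 609 CPM (2 of 10 higher), hepatocyte markers to 145568 to 147845 and 138251 to 140675 CPM (3 of 10 lower) and endothelial markers to 847 to 877 and 832 to 880 CPM (1 of 10 higher, 2 lower). No cholangiocyte marker was called by edgeR, with 2 of 7 at an unadjusted p under 0.05 (66.6 to 68.9 and 50.7 to 65.5 CPM). The part of these markers was not tested. Tamoxifen, experiment and age, which is not given for the tamoxifen-treated mice, cannot be told apart here. This comparison, p53KO against FF and DKO against p53KO all use the same 2 p53KO libraries, so a high level there enters each of them. The values side by side for Egr1 are 32.1 ± 6.61 CPM in FF, 336 ± 143 in p53KO, 48.95 ± 19.7 in DKO and 25.0 ± 26.4 in p53KO TAM (mean ± SD, n = 2).

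The 2 p53KO libraries also differed from each other. Of the 10 genes, 9 were higher in library 1 than in library 2, Dusp1 being the exception, as were 46.6% of all genes. The median log2 difference was 0.93 over the 10 genes and -0.02 over all genes. Fos was 2.15-fold, Jun 1.96-fold and Egr1 1.86-fold higher in library 1. Between the p53KO TAM libraries, Egr1 differed by 6.98-fold, Fos by 2.93-fold and Junb by 2.89-fold, with 4.82% of all genes over 2-fold apart on the log2 scale with its prior count. In DKO none of the 10 genes was over 2-fold apart in CPM, and in DKO TAM Fosb was, at 7 and 2 counts (2.91-fold). On the log2 scale with its prior count, none of the 10 was in either group, against 1.08% of all genes in DKO and 3.46% in DKO TAM. The spread within groups that edgeR estimated for Egr1, Fos, Junb and Jun, relative to its trend for genes of like abundance, stood at percentiles 99.7, 99.1, 98.5 and 97.7 of all genes, and that for Zfp36 at 42.1. For a transcript of the first kind, 2 libraries a group resolve large differences only.

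Markers of other liver cells moved with the deletion and are given beside these genes. Of 11 macrophage markers, 10 were called higher in DKO than in p53KO and none lower, with sums of 1342 to 1395 against 568 to 647 CPM. Of 10 stellate and fibroblast markers 9 were higher (1434 to 1502 against 423 to 431 CPM), and of 7 cholangiocyte markers tested 5 were higher (269 to 300 against 66.6 to 68.9 CPM for 8). Of 10 endothelial markers, 2 were higher and 4 lower (593 to 715 against 847 to 877 CPM), and of 10 hepatocyte markers all 10 were lower. Of 4 neutrophil markers tested 2 were higher, with sums of 20.8 to 31.5 against 6.64 to 11.9 CPM for 7, and of 3 lymphocyte markers tested none was called. In KO against FF, 2 of 11 macrophage, 1 of 10 endothelial and 1 of 10 stellate markers were higher and 7 of 10 hepatocyte markers lower, and no neutrophil, cholangiocyte or lymphocyte marker was called. With tamoxifen, 1 macrophage and 1 cholangiocyte marker were higher, 5 hepatocyte, 5 endothelial and 1 stellate marker lower, and none of the neutrophil or lymphocyte markers was called. Elane, a neutrophil granule gene, had no counts in FF and KO. Over all genes tested, 6.92% were called higher and 7.88% lower in KO, 25.7% each way in DKO, and 8.61% and 10.1% with tamoxifen. The part of the marker shifts in the levels of the 10 genes was not tested.

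Other basic leucine zipper genes of the AP-1 group gave 2 higher and 1 lower of 11 tested in KO, 2 higher and 3 lower in DKO and none with tamoxifen, where 3 had an unadjusted p under 0.05. The shares of all genes called higher and lower were 6.92% and 7.88% in KO, 25.7% each in DKO, and 8.61% and 10.1% with tamoxifen. Fosl2, a Fos relative, rose from 10.3 to 22.1 CPM in KO (1.10 ± 0.23, adjusted p = 0.0038) and from 19.5 to 38.4 CPM in DKO (0.97 ± 0.20, adjusted p = 0.00058). Mafg, a small Maf protein, fell by 0.68 ± 0.17 in KO and by 0.81 ± 0.16 in DKO. Jdp2, a repressor of AP-1, rose by 1.22 ± 0.39 in KO (adjusted p = 0.045).

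A further 42 immediate early genes were tested. Of them, 4 were higher and 4 lower in KO, where 6.92% and 7.88% of all genes were (medians 0.36 for these genes and 0.02 for all). In DKO 13 were higher and 8 lower, where 25.7% of all genes were in each direction (medians 0.13 and 0.01). With tamoxifen none was higher and 4 were lower, where 8.61% and 10.1% of all genes were (medians -0.21 and 0.01). These counts only describe the list. Phlda1, which encodes a pleckstrin homology protein, fell in all 3, from 185 to 24.7 CPM in KO (-2.91 ± 0.31), from 275 to 26.3 CPM in DKO (-3.39 ± 0.30) and from 111 to 45.6 CPM with tamoxifen (-1.29 ± 0.28, adjusted p = 0.013). Gadd45b, a stress sensor, rose from 0.285 to 3.31 CPM in KO (adjusted p = 0.0014), and Plk2, a polo-like kinase, from 34.1 to 110 CPM (adjusted p = 0.0058). The FF mean of Gadd45b lies below 3 counts, which equal 0.677 and 0.518 CPM in the 2 FF libraries. Ier5 rose from 2.22 to 13.96 CPM in DKO and Tnfaip3, an inhibitor of NF-kappa B signalling, from 5.597 to 21.2 CPM. With tamoxifen, Zfp36l1, a relative of Zfp36 with the same mRNA-decay function, fell from 114 to 79.1 CPM (-0.53 ± 0.13, adjusted p = 0.0089). In p53KO against FF, 1 of the 42 was called higher, where 0.592% of all genes were. It was Plk3, which is named after its value was seen. Of the 42, 16 had an unadjusted p under 0.05 (median 0.62). In p53KO TAM against p53KO, 10 were lower, where 8.22% of all genes were, and 2 higher, where 1034 of the 13693 genes were (median -0.63). The plot by comparison sets these genes beside the 10.

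**Figure D4:**
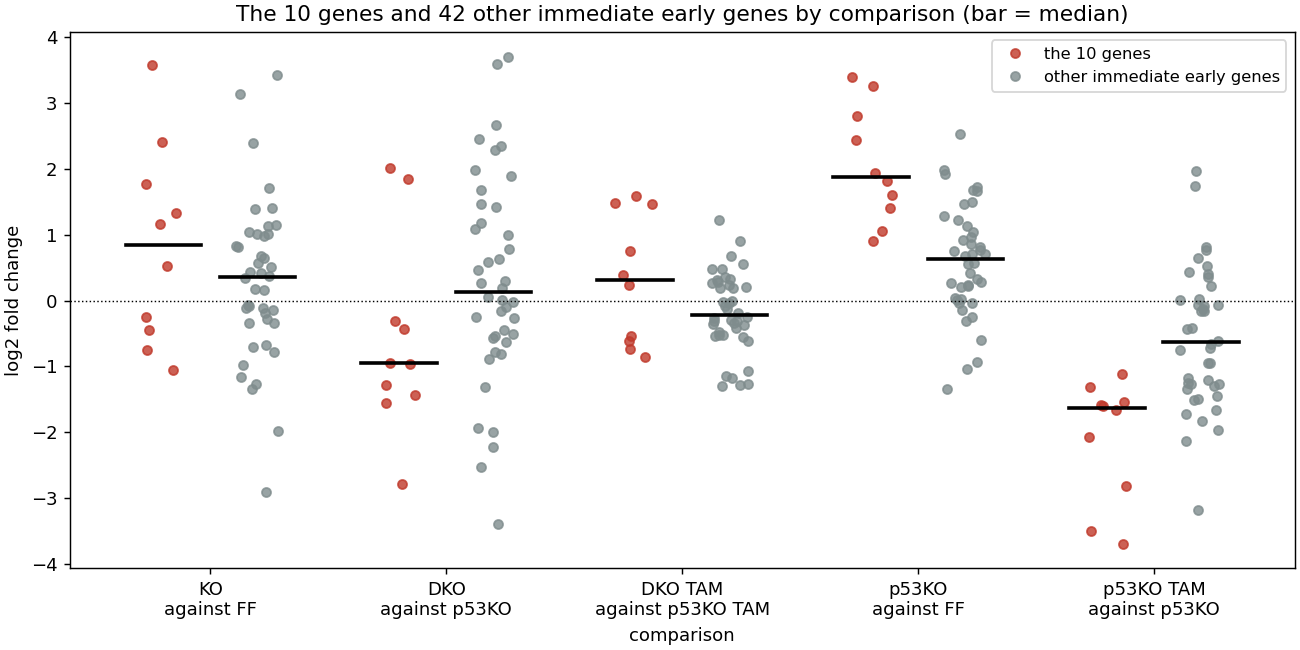
Log2 fold changes (vertical axis) of the 10 genes (red) and of the 42 other immediate early genes tested (grey) are shown for 5 comparisons (horizontal axis), with a bar at each median. The red medians are 1.88 for p53KO against FF and -1.63 for p53KO TAM against p53KO, and the grey medians 0.62 and -0.63; sideways position within a column has no meaning.

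Of 23 regulators upstream, SRF, its ternary complex and myocardin-related partners, CREB factors and MAP kinases, 1 was higher and 1 lower in KO, 4 higher and 9 lower in DKO, and 1 higher and 2 lower with tamoxifen. Among all genes, 6.92% were higher and 7.88% lower in KO, 25.7% each way in DKO, and 8.61% and 10.1% with tamoxifen. Mkl2, a myocardin-related coactivator of SRF, was higher in all 3 (0.52 ± 0.14, 0.85 ± 0.14 and 0.48 ± 0.14, with adjusted p of 0.022, 0.00010 and 0.025). Elk1, a ternary complex factor, fell in KO from 12.7 to 6.66 CPM (adjusted p = 0.039). In DKO the kinases Map2k2 (159 to 93.7 CPM) and Mapk8 (50.5 to 29.2 CPM) and the ternary complex factor Elk4 (142 to 91.5 CPM) fell. Mapkapk2, a kinase that acts on Zfp36 protein, fell with tamoxifen from 226.9 to 119 CPM (-0.93 ± 0.13, adjusted p = 0.00013). Its p53KO TAM level was itself called higher than that of p53KO, and FF and KO stood at 91.4 and 116 CPM.

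Atf3 is a target of ATF4, so the ATF4 and integrated stress response genes were counted too. Of 13 tested, 2 were higher and 1 lower in KO, where 6.92% and 7.88% of all genes were. In DKO 9 were higher and 3 lower, where 25.7% of all genes were in each direction. With tamoxifen none was higher and 2 were lower, where 8.61% and 10.1% of all genes were. Atf4 mRNA itself fell in all 3, from 96.9 to 52.6 CPM (-0.88 ± 0.15), from 114 to 63.4 CPM (-0.85 ± 0.14) and from 100 to 60.2 CPM (-0.73 ± 0.14). Sesn2, a target of both ATF4 and p53, rose in KO from 3.60 to 13.7 CPM (adjusted p = 0.00033). Vldlr, a lipoprotein receptor, rose in DKO from 2.72 to 17.01 CPM and fell with tamoxifen from 6.47 to 1.999 CPM. Of 10 heat shock genes, 3 were higher in each of the 3 comparisons (6.92%, 25.7% and 8.61% of all genes) and 1 was lower in DKO (25.7%). Hspa1b, an inducible HSP70, rose in KO from 3.42 to 13.1 CPM (1.94 ± 0.36, adjusted p = 0.0020) and with tamoxifen from 6.66 to 13.9 CPM (1.13 ± 0.31, adjusted p = 0.017). Summed heat shock transcripts ranged from 1487 to 2340 CPM between the 2 p53KO TAM libraries and from 1331 to 1734 CPM over all other libraries.

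Likeness was measured as Pearson's r, over the 12 libraries, to the mean of the 10 genes after each was centred and scaled. The libraries share their groups and their experiment, so these values only describe. The most alike outside the 10 were Rasgef1b (r = 0.95), Nedd1 (0.92), Apbb3 (0.92), Il13ra2 (0.90) and Chd1 (0.90). Rasgef1b stood at 117 and 81.6 CPM in p53KO, at 64.5 and 75.2 CPM in DKO and between 32.3 and 58.0 CPM in the other 8 libraries. The least alike was Asap3 (r = -0.95), with 10.4 and 12.9 CPM in p53KO and 28.9 and 20.2 CPM in FF. Among the 10, the r of each gene to the mean of the other 9 was highest for Jun (0.87) and Egr1 (0.85) and lowest for Atf3 (0.49) and Egr2 (0.40), the 2 genes whose group means peaked in DKO.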

How the data were processed

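Libraries of whole-liver RNA were made with the SMARTer Stranded Total RNA kit. Raw read counts per gene were deposited, produced with CASAVA 1.82, HISAT2, featureCounts and mm10 (GRCm38) per the submitters' processing notes. The file headers of 4 tables, the 7-week libraries, name featureCounts 1.6.4 with no strand option, and the other 8 tables carry no program line. The exon length column deposited beside the counts was used for values per kilobase. Groups follow the titles.

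Counts were analysed with edgeR 4.0.16 in R 4.3.3: filterByExpr (minimum count 10), TMM scaling, 1 model of the 6 group means over 12 libraries (common biological coefficient of variation 0.124, 6 residual degrees of freedom) and the robust quasi-likelihood F test, with Benjamini-Hochberg adjustment over 13693 genes. The SE was taken from the fold change and the square root of the F statistic. The method was tested on simulated data in which every gene had a coefficient of variation of 0.124. Of the 10 genes, all but Zfp36 had a larger estimate, up to 0.53 for Egr1, so the simulation does not cover their spread. Log2 CPM used a prior count of 2. Totals of 4939408 to 8776369 counts make 3 counts equal to 0.254 to 0.677 CPM on the TMM scale.

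The 10 genes and all lists were chosen with earlier results of these data known. Always named were the 10 genes, Polr2m and Trp53; from other lists up to 4 genes with the smallest p in a main comparison could be named, and by likeness the 5 highest and 5 lowest. Results were recomputed with scaling by RLE, by upper quartile and by library totals, with no filter, with DESeq2 1.42.0 and limma-voom (limma 3.58.1), with only the groups compared, with a block for the replicate number, without each library in turn and at an adjusted p under 0.01. Promoters were searched and figures drawn in Python 3.11.15 (pandas 2.3.3, numpy 2.4.6, matplotlib 3.10.9), and binomial intervals came from scipy 1.17.1.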

Additional observations from a re-analysis of the deposited data

Results flagged for a closer look

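In 3 instances the difference between deleted and control livers in a gene differed between experiments by a test of the difference itself (edgeR quasi-likelihood test). Zfp36 differed by -0.85 ± 0.20 on the log2 scale between DKO against p53KO and KO against FF (adjusted p = 0.0059), with -1.29 in the former and -0.44 in the latter. Dusp1 differed by -1.46 ± 0.40 between the same comparisons (adjusted p = 0.024), with -0.94 and 0.52. Zfp36 also differed by -0.75 ± 0.20 between DKO against p53KO and DKO TAM against p53KO TAM (adjusted p = 0.0099), with -1.29 and -0.54. In each case the p53KO libraries held the highest levels of the gene, at 87.9 to 110 CPM for Zfp36 and 61.9 to 67.9 CPM for Dusp1.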

How the results depend on the processing

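Of 931 values recomputed for single genes under the alternatives, 782 kept their direction and their side of the threshold, 78 lost a call, 46 gained one and 25 turned direction. The cause of these shifts was not tested. Counts of the 10 genes called are given first. An adjusted p under 0.01 left 1 higher and 0 lower in KO against FF (2026 genes fell to 959), 2 lower in DKO against p53KO, 0 higher and 0 lower with tamoxifen (2559 genes fell to 1201), 1 lower for the DKO effect minus the KO effect (3106 genes fell to 1546), 1 higher for p53KO against FF (118 genes fell to 37) and 3 lower for p53KO TAM against p53KO (2160 genes fell to 1003), and for the DKO effect minus the DKO TAM effect 3780 genes fell to 2069. Library totals alone gave 0 lower in KO (3292 genes), 3 lower in DKO, 3 higher and 0 lower with tamoxifen (4928 genes) and 0 lower for both differences of effects. RLE gave 2 lower in KO. With only the libraries compared, 2 were lower in KO, 2 higher and 2 lower with tamoxifen and 5 lower for p53KO TAM against p53KO. With limma-voom, 0 were lower in KO, 0 higher with tamoxifen, 5 lower for the DKO minus KO effects, 3 lower for the DKO minus DKO TAM effects and 6 higher for p53KO against FF. DESeq2 gave 2 lower with tamoxifen, 4 and 3 lower for the same differences and 6 higher for p53KO against FF (182 genes). Without the filter, 2 were lower for the DKO minus DKO TAM effects, and 190 genes were called for p53KO against FF.

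With 1 library left out at a time, KO against FF had 1087 to 1285 genes called, 1 to 2 of the 10 higher and 0 to 1 lower; DKO against p53KO had 2 to 6 lower. With tamoxifen there were 1188 to 1953 genes, 0 to 0 higher and 0 to 1 lower. For the DKO minus KO effects there were 1968 to 2751 genes and 1 to 4 lower, and for the DKO minus DKO TAM effects 1 to 4 lower. For p53KO against FF there were 30 to 105 genes and 1 to 3 higher, the fewest genes without FF library 1, and for p53KO TAM against p53KO 974 to 1715 genes and 3 to 8 lower.

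No fold change that turned direction had been called. Library totals alone turned Egr1 in KO (0.0059), Fosb (0.33) and Jun (0.46) in DKO, Junb (0.30) and Ier2 (0.0015) in the DKO minus KO effects and Dusp1 (0.34) in the DKO minus DKO TAM effects, the last also with upper quartile scaling (0.10). Limma-voom turned Fosb in DKO (0.082) and Atf3 in the DKO minus KO effects (-0.031). Leaving out 1 library gave ranges across 0 for Fosb (-1.19 to 1.83) and Jun (-0.71 to 0.26) in DKO, for Fos (-0.11 to 1.44), Junb (-0.27 to 1.26) and Egr1 (-1.48 to 1.33) with tamoxifen, for Junb (-0.57 to 0.27) and Atf3 (-0.97 to 0.81) in the DKO minus KO effects, and for Fosb (-2.66 to 0.35), Egr2 (-0.024 to 1.21), Atf3 (-0.077 to 1.11) and Dusp1 (-0.57 to 0.28) in the DKO minus DKO TAM effects. With an arm of 1 library, that library is assumed to vary like the other groups.

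The replicate number was fitted as a block where both groups carry numbers 1 and 2. The correlation of deviations between libraries of the same number was 0.11 for FF and KO and -0.01 for the tamoxifen groups, so the numbers are not taken as a pairing. The replicate block changed 1 count, to 2 lower with tamoxifen (Dusp1, -0.87, adjusted p = 0.029). No paired analysis was possible because the 8-week groups share only the number 2. At this depth Egr2 and Fosb rest on few counts.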
